A study of Mus musculus with 48 samples.

Results

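Matrix metalloproteinases (MMPs) are zinc-dependent proteases that cut collagens, laminins, fibronectin and elastin outside the cell, or shed proteins from the cell surface. They are made as inactive precursors, are switched on by furin-like proteases, plasmin or each other, and are held in check by the tissue inhibitors TIMP. In the brain they are best known for breaking down the basement membrane and tight junctions of the blood–brain barrier after ischemia. The 10 members described here are *Mmp2*, *Mmp3*, *Mmp8*, *Mmp9*, *Mmp11*, *Mmp12*, *Mmp13*, *Mmp14*, *Mmp19* and *Mmp25*, taken by gene symbol from a table of 24973 genes. They were chosen with earlier results of these data known, so counts of members called are not those of a blind choice. By role they are the gelatinases *Mmp2* and *Mmp9*, the stromelysin *Mmp3*, the collagenases *Mmp8* and *Mmp13*, the macrophage elastase *Mmp12*, the furin-activated secreted *Mmp11*, the membrane-bound *Mmp14* and *Mmp25*, and *Mmp19*.

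The samples were 4 cell types of the neurovascular unit (NVU) sorted by flow cytometry from male C57BL/6 wild-type mice of 12 to 15 weeks. All mice had 1 h of transient middle cerebral artery occlusion (tMCAO, a filament model of ischemic stroke on the right side) and 23 h of reperfusion. Ipsilateral libraries came from the hemisphere of the occlusion, and contralateral libraries from the other hemisphere of the same mice, so the controls also lived through a stroke and no sham group was analysed. Each of the 8 groups held 6 libraries, and each library was a pool of 3 to 4 mice chosen for a clear neurological deficit. Endothelial cells (EC) were sorted as VECAD-positive cells, pericytes (PC) as NG2- and PDGFRβ-positive cells, astrocytes (AC) as ACSA2-high cells and microglia (MG) as CD45-low, CD11b-positive cells.

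In every cell type, all 12 libraries had a higher summed level of their own defining markers than any of the 36 libraries of other types. The 12 ipsilateral pericyte and microglial libraries have sample titles that name the opposite cell type to their column, and the column name, with which these markers fit, was used. Libraries of replicates 5 and 6 stood apart from replicates 1 to 4 in microglial RNA in the other cell types, in both hemispheres. The summed level of 10 microglial markers in ipsilateral endothelial cells was 13177 to 87345 normalized counts in replicates 1 to 4 and 1319 to 1420 in replicates 5 and 6. In ipsilateral pericytes it was 21238 to 107426 against 702 to 916, and in ipsilateral astrocytes 9818 to 43415 against 1931 to 2286. On the contralateral side it was 12822 to 59314 against 1411 to 1580 in endothelial cells. There it was 1468 to 42010 against 599 to 1102 in pericytes and 5527 to 50936 against 2732 to 3517 in astrocytes. Astrocyte libraries also held 34408 to 367437 normalized counts of 7 oligodendrocyte lineage markers, and pericyte libraries held 140102 to 472420 of 4 smooth muscle markers. Depth was estimated at 4900000 to 17100000 reads on genes per library, and 3 reads, taken as the floor of detection for counting error only, corresponded to 2.01 to 7.1 normalized counts. In these bulk samples, fewer cells of a type and less RNA per cell cannot be told apart.

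All 10 genes code for the active site that gives the family its name. The zinc-binding consensus, a run of 11 codons with 3 histidine codons that hold the zinc ion, was found in frame in each of them in the GENCODE M21 transcripts (GRCm38), in exon 8 of the gelatinases *Mmp2* and *Mmp9* and in exon 5 of the other 8. The coding bases of *Mmp12*, *Mmp14* and *Mmp19* are shown because these are the members that were regulated after stroke, with the histidine codons in capitals. They lie on the plus strand at chr9:7352914-7352946, chr14:54437627-54437659 and chr10:128795673-128795705.
Mmp12: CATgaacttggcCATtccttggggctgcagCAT
Mmp14: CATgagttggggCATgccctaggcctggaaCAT
Mmp19: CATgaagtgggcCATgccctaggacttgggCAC
Over the 45 pairs of members, 20 to 29 of the 33 bases were identical, and *Mmp19* and *Mmp25* were the closest pair with 29.

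*Mmp13*, *Mmp12*, *Mmp3* and *Mmp8* lie in that order in a run of 10 family genes over 427 kb of chromosome 9 (7272514 to 7699585). Their starts are 71.9, 101 and 113 kb apart. By start site *Mmp1b* lies between *Mmp12* and *Mmp3*, and *Mmp1a* and *Mmp10* lie between *Mmp3* and *Mmp8*. RefSeq promoter windows of GRCm38.p6, which run from 250 bases before to 50 after a start, were at hand for 7 of the 10 members, namely *Mmp3*, *Mmp8*, *Mmp11*, *Mmp12*, *Mmp13*, *Mmp14* and *Mmp25*. Windows of *Mmp2*, *Mmp9* and *Mmp19* were not used here. The AP-1 motif, searched as TGAGTCA or TGACTCA so that both strands were covered, was present in *Mmp3*, *Mmp12* and *Mmp13* and in 5.20% of all 32851 windows. It was also present in *Mmp1a*, *Mmp1b*, *Mmp7* and *Mmp10*, which are not members but belong to the same run, so it was not particular to the members. *Mmp12* has 2 annotated starts, and the motif was found at the start at 7347374 and not at the one at 7344397. The 60 bases before the starts of *Mmp13*, *Mmp12* (the one at 7347374) and *Mmp3* are shown with the motif in capitals, since these members include the one with the largest stroke change, *Mmp12*. They lie on the plus strand at chr9:7272454-7272513, chr9:7347314-7347373 and chr9:7445762-7445821.
Mmp13: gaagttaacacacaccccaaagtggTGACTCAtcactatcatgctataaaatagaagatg
Mmp12: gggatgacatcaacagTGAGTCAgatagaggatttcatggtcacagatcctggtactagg
Mmp3: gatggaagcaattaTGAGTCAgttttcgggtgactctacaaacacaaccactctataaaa
The motif begins 35, 44 and 46 bases before the start in *Mmp13*, *Mmp12* and *Mmp3*. The TATA motif TATAAA, searched on both strands and held by 13.6% of all windows, begins 16 bases before the start of *Mmp13* and 7 before that of *Mmp3*, and 4 bases after that of *Mmp12*. *Mmp8* holds it on the opposite strand, as TTTATA from 3 bases before its start. A match is a description of the letters and not a measured binding site.

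Levels per kb of exon are compared between genes only in the contralateral hemisphere, where the highest mean belonged to *Mmp14*, an MMP anchored in the cell membrane that activates pro-MMP2. *Mmp14* stood at 449 ± 151 normalized counts per kb in astrocytes (SD, n = 6), 212 ± 87.0 in pericytes, 137 ± 27.7 in microglia and 19.3 ± 9.70 in endothelial cells. *Mmp3* in pericytes (148 ± 215), *Mmp2* in microglia (90.8 ± 25.4) and *Mmp11* in pericytes (78.0 ± 28.9) and astrocytes (62.9 ± 12.7) followed. The place of *Mmp3* rested on replicate 6, without which its mean was 62.2 ± 54.6 (SD, n = 5). *Mmp12* in microglia reached 4.44 ± 2.85, and *Mmp13* was highest in microglia at 1.12 ± 2.57. *Mmp12* and *Mmp13* thus had low levels per kb in the control hemisphere, as did *Mmp19*, with means from 1.84 in endothelial cells to 6.89 in astrocytes. The exon length used for *Mmp12* was 7237 bases. *Mmp12* was nonetheless above the floor in all 6 contralateral microglial libraries (6 to 60 normalized counts), whereas *Mmp13* was above it there in 1, at 17.

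**Figure D1:**
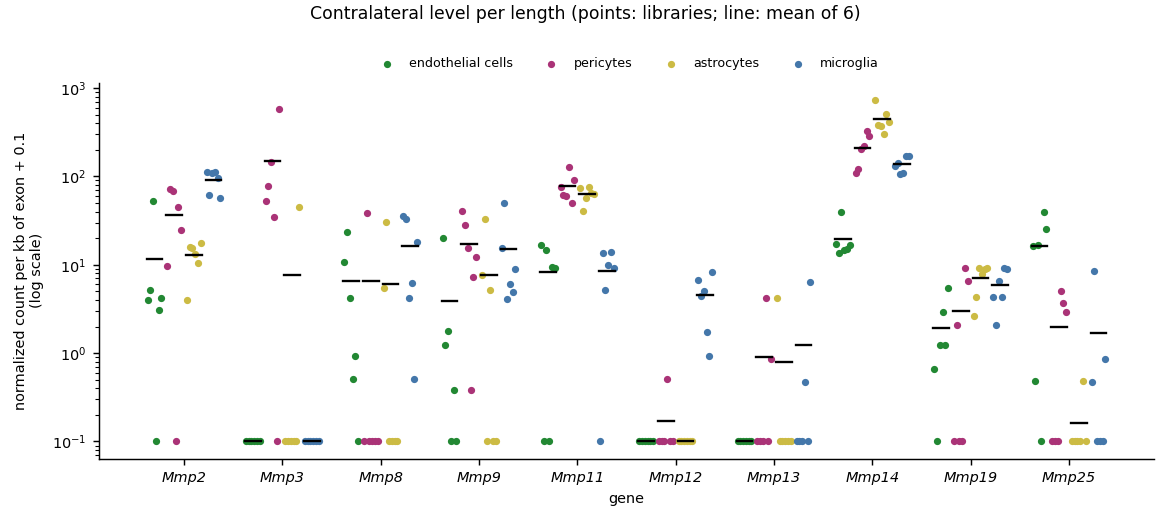
Contralateral levels of the 10 MMP genes in normalized counts per kb of exon, with 0.1 added, on a log axis. Points are the 6 libraries of each cell type and black lines their means. *Mmp14* is highest in astrocytes (mean 449) and lowest in endothelial cells (mean 19.3), and *Mmp12* lies near the bottom of the axis outside microglia.

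Cell types were compared within the contralateral hemisphere by limma on log2(normalized count + 1), with 6 contrasts, 15103 genes and Benjamini-Hochberg adjustment. A difference was called at an adjusted p of at most 0.05 and a difference of at least 1.5-fold, with more than 10 normalized counts in all 6 libraries of at least 1 of the 2 cell types. Of 48 differences tested for the 8 members with enough signal, 12 were called. The share of all genes called was 30.1% for endothelial cells against pericytes, 44.2% for endothelial cells against astrocytes, 37.6% for endothelial cells against microglia, 41.1% for pericytes against astrocytes, 42.7% for pericytes against microglia and 46.3% for astrocytes against microglia. The members' count therefore does not stand out from the differences between these cell types in general.

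*Mmp14* gave 5 of the 12. In astrocytes the 6 contralateral libraries had 4338, 2270, 2211, 1813, 2991 and 2429 normalized counts, and in endothelial cells 102, 81, 232, 86, 90 and 100, with no overlap. The log2 difference of endothelial cells was -4.57 (SE 0.28, limma adjusted p = 4.32e-12) from astrocytes, -3.44 (adjusted p = 8.20e-10) from pericytes and -2.90 (adjusted p = 8.29e-09) from microglia. Pericytes minus astrocytes was -1.14 on the same scale (adjusted p = 0.00183), and astrocytes exceeded microglia by 1.68 (adjusted p = 2.06e-05). Pericytes and microglia, neighbours in this order, differed by 0.54 (SE 0.28, adjusted p = 0.121). The oligodendrocyte RNA in the astrocyte libraries lay beside these values, and its part in them was not tested.

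*Mmp11*, which in other tissues is made by stromal cells, was highest in the pericyte and astrocyte libraries. It had 137 to 359 normalized counts in contralateral pericytes (median 192) and 114 to 213 in astrocytes (median 179). In endothelial cells it had 0 to 46 and in microglia 0 to 38. Pericytes exceeded microglia by 3.70 (adjusted p = 0.00189) and astrocytes exceeded microglia by 3.44 (adjusted p = 0.00320) on the log2 scale. Endothelial cells lay below pericytes (-4.29, adjusted p = 0.000738) and astrocytes (-4.03, adjusted p = 0.000855). The difference between pericytes and astrocytes was 0.26 (SE 0.94, adjusted p = 0.842). Smooth muscle RNA in the pericyte libraries and oligodendrocyte RNA in the astrocyte libraries lay beside these values, and their part in them was not tested.

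*Mmp2*, gelatinase A, was highest in microglia with 192 to 381 normalized counts (median 342). Pericytes spread from 0 to 240, astrocytes from 13 to 59, and endothelial cells from 0 to 179 with 5 libraries at or below 17. Microglia exceeded endothelial cells (endothelial minus microglia -4.40, adjusted p = 0.00160) and astrocytes (astrocytes minus microglia -2.90, adjusted p = 0.0261). Pericytes minus microglia was -2.46 with an adjusted p of 0.0616, and 0.0331 with the replicate number as a block, which made it a called difference. *Mmp9*, gelatinase B, had 14 to 178 in microglia against 0 to 70 in endothelial cells (-3.09, adjusted p = 0.0499, 0.0157 with the block). This call was at the threshold and was lost in 9 of 11 alternative fits that tested it, each fit without 1 of replicates 2 to 6 among them, with adjusted p up to 0.146. With the block astrocytes were also below microglia (-2.49, adjusted p = 0.103 without and 0.0415 with it).

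*Mmp3*, stromelysin-1, was seen in 5 of 6 contralateral pericyte libraries, with 95, 141, 262, 62, 0 and 1035 normalized counts. It was 0 in all 6 endothelial and all 6 microglial libraries and in 5 of 6 astrocyte libraries. Endothelial cells minus pericytes was -6.29 (adjusted p = 0.000104), but the pericyte library at 0 kept it from being called. Pericyte libraries also held 5039 to 14271 normalized counts of 6 fibroblast markers, against 48 to 143 in microglia, and their part in *Mmp3* was not tested. *Mmp25*, a glycolipid-anchored MMP known from neutrophils, had 0 to 207 normalized counts in contralateral endothelial cells, 0 to 26 in pericytes, 0 to 2 in astrocytes and 0 to 44 in microglia. Endothelial cells minus astrocytes was 4.62 (adjusted p = 0.00317) and endothelial cells minus microglia 3.32 (adjusted p = 0.0341), but endothelial libraries at or near 0 kept both from being called. *Mmp8* and *Mmp19* had medians of at most 29.5 normalized counts in every contralateral group.

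**Figure D2:**
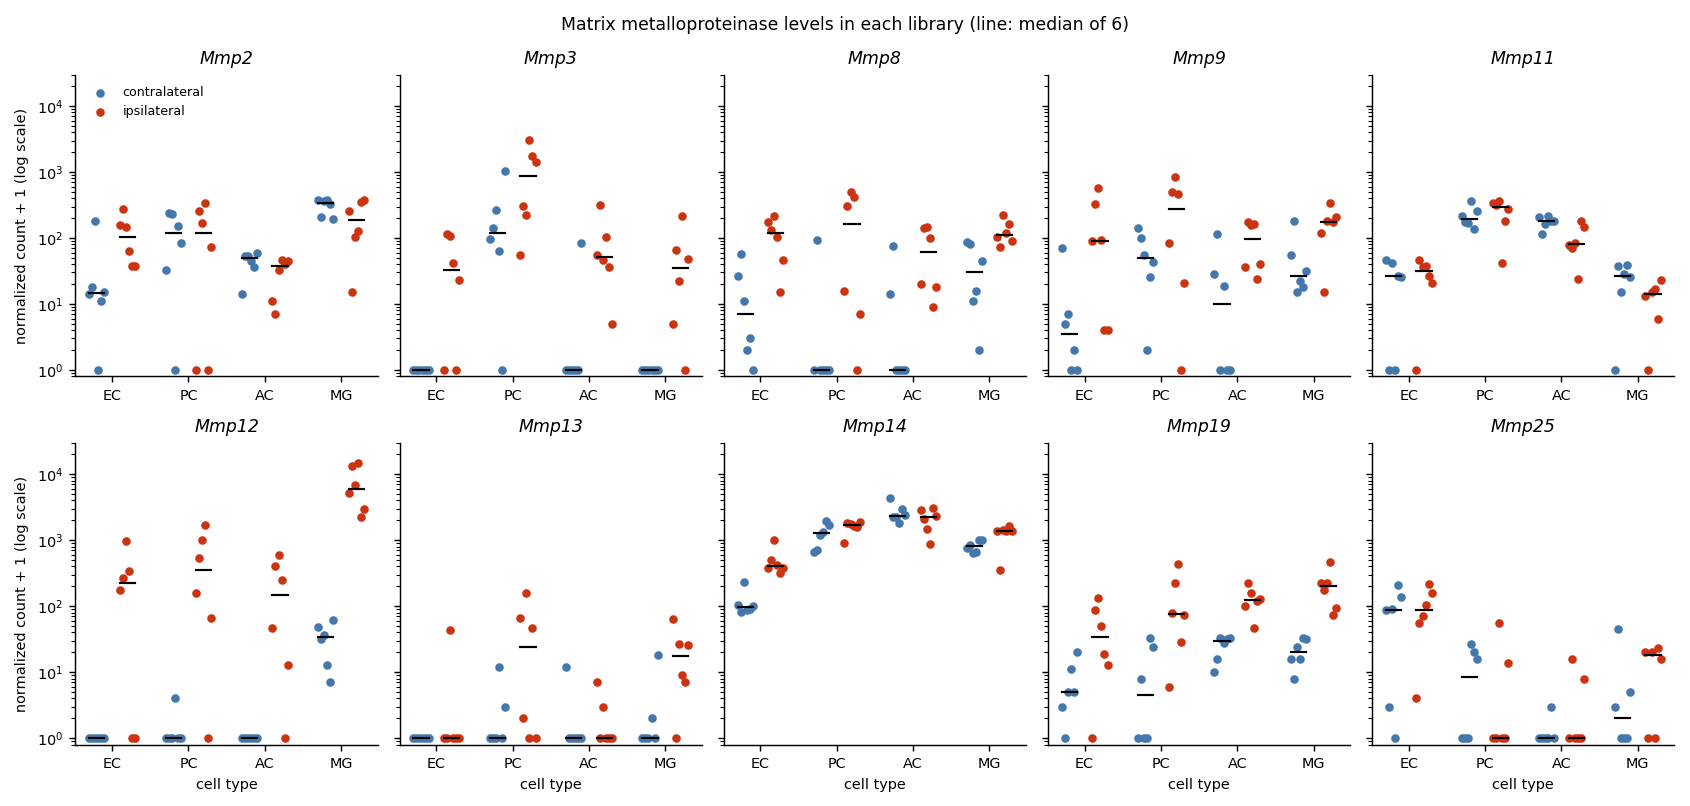
Normalized count + 1 on a log axis for each of the 10 MMP genes, by cell type (EC, PC, AC, MG), for 6 contralateral (blue) and 6 ipsilateral (red) libraries with the median as a black line. *Mmp12* in microglia lies at 6 to 60 on the contralateral side and at 2213 to 14533 on the ipsilateral side.

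The next comparison asked which MMP genes responded to stroke in each NVU cell type. Ipsilateral and contralateral libraries of a cell type were fitted by limma on log2(normalized count + 1), so that fold changes of low genes are understated, and a gene was called regulated by the 3 criteria above. In microglia 2 of 10 members were regulated, *Mmp12* and *Mmp19*, both upregulated, while 10.6% of the 13300 genes tested were regulated. In endothelial cells it was 1 of 9 members tested, *Mmp14*, upregulated, with 0.491% of 13242 genes regulated. In astrocytes it was 1 of 8, *Mmp19*, upregulated, with 0.341% of 15264 genes. In pericytes 0 of 10 were regulated by limma, with 1.02% of 13597 genes, although 3 had an unadjusted p under 0.05. With the replicate block the regulated members were again *Mmp14*, none, *Mmp19*, and *Mmp12* and *Mmp19*, where 0.551%, 1.66%, 1.59% and 11.0% of genes were regulated in endothelial cells, pericytes, astrocytes and microglia. No member was downregulated in any cell type. Hemispheres that did not overlap, with the ipsilateral side higher, were found for *Mmp14* in endothelial cells, *Mmp19* in astrocytes and *Mmp12* and *Mmp19* in microglia, and for 0 members in pericytes, where they were found for 0.838% of genes.

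**Figure D3:**
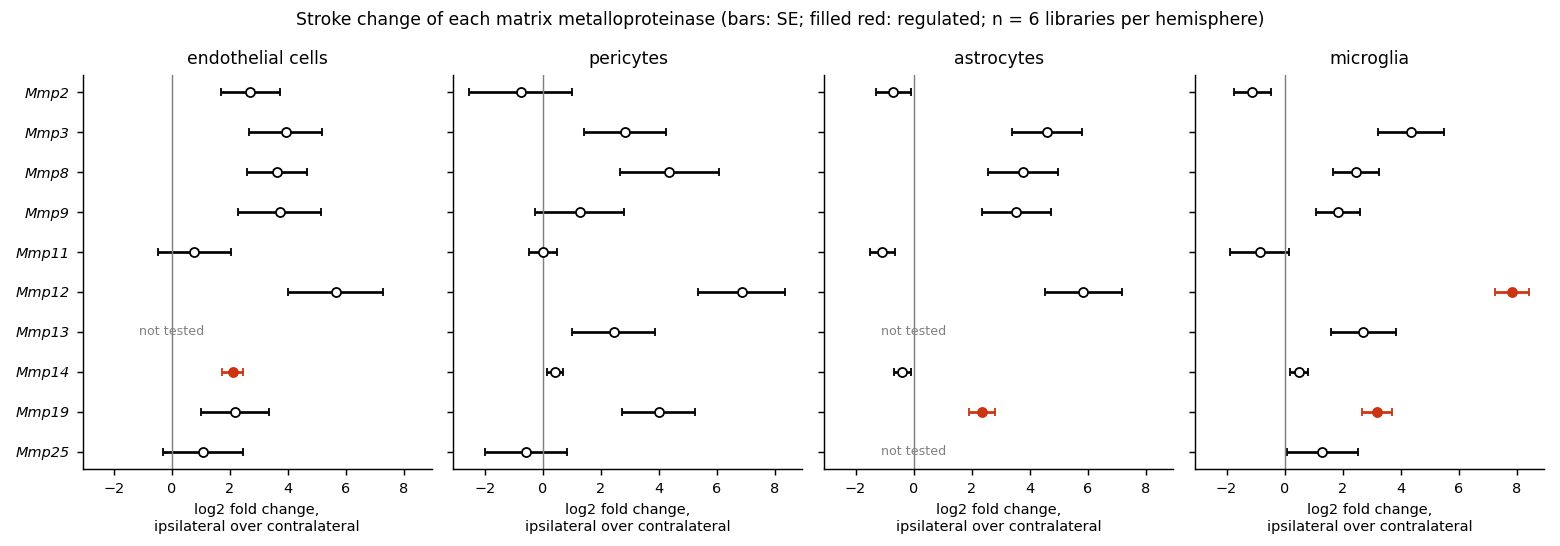
Log2 fold change of each MMP gene, ipsilateral over contralateral, on the log2(normalized count + 1) scale, in 4 panels for the cell types, with bars for the SE and 6 libraries per hemisphere. Filled red points are the regulated genes, *Mmp14* in endothelial cells (2.10), *Mmp19* in astrocytes (2.34) and *Mmp12* (7.83) and *Mmp19* (3.18) in microglia.

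*Mmp12*, the macrophage metalloelastase that degrades elastin, was the member with the largest change. The contralateral microglial libraries had 48, 31, 36, 12, 6 and 60 normalized counts and the ipsilateral ones 5200, 13214, 6858, 14533, 2213 and 2922. Every ipsilateral library was above every contralateral one, as for 3.78% of the genes tested in microglia, and the means differed 233-fold. The log2 fold change was 7.83 (SE 0.57, limma adjusted p = 2.81e-06, 8.33e-05 with the block), and it ranged from 5.58 to 10.13 over the 6 pairs. *Mmp12* was called in all 16 alternative fits, with adjusted p from 3.26e-07 to 0.000263. The end of *Mmp12* overlaps *Mmp1b* on the opposite strand in GENCODE M21, and reads on more than 1 gene were left out by the authors' counting.

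*Mmp12* was also present on the ipsilateral side of the other cell types, in some libraries only. In ipsilateral endothelial cells the values were 176, 265, 983, 337, 0 and 0 normalized counts for replicates 1 to 6, against 0 in all 6 contralateral libraries. In ipsilateral pericytes they were 160, 538, 1016, 1706, 0 and 65, against a single contralateral value of 3 and 5 at 0. In ipsilateral astrocytes they were 46, 401, 596, 244, 0 and 12, against 0 in all 6. Replicates 1 to 4 were thus high in all 3 cell types, and replicates 5 and 6 were at or near 0 apart from 65 in pericytes.

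Against the floor of 3 reads, averaged over the contralateral libraries, the ipsilateral mean was at least 103-fold higher in endothelial cells and at least 73.5-fold higher in astrocytes. The log2 fold change was 5.64 (SE 1.63, adjusted p = 0.157) in endothelial cells, 6.86 (SE 1.5, adjusted p = 0.0447) in pericytes and 5.84 (SE 1.32, adjusted p = 0.109) in astrocytes. With the block the adjusted p was 0.137, 0.0377 and 0.0368. None of these was called regulated. In endothelial cells and astrocytes the adjusted p was above 0.05, and in all 3 cell types at least 1 library of each side was at 0, so that the expression criterion was not met. Over replicates 1 to 4 alone *Mmp12* was regulated in all 3, with log2 fold changes of 8.47, 8.78 and 7.84 and adjusted p of 0.0148, 0.0210 and 0.00284. This subset leaves out every ipsilateral library at 0, so the calls follow from the choice of libraries and are not separate support.

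Microglial RNA moved with these values. In replicates 1 to 4, *Mmp12* in ipsilateral endothelial cells was 2.01 to 14.3% of its level in ipsilateral microglia of the same replicate, and the sum of the 10 microglial markers was 3.02 to 21.4% of theirs. In pericytes the corresponding ranges were 3.08 to 14.8% and 3.65 to 26.3%, and in astrocytes 0.885 to 8.69% and 1.69 to 10%. In each of these 12 libraries the share of *Mmp12* was below the share of the markers. In replicate 6 of the pericytes *Mmp12* was at 2.22% and the markers at 0.135%. Monocyte and macrophage markers moved likewise, with sums over 10 genes of 1742 to 8386 normalized counts in replicates 1 to 4 and 405 to 412 in replicates 5 and 6 of ipsilateral endothelial cells. The part of either cell type in the *Mmp12* values of the other sorted cells was not tested.

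**Figure D4:**
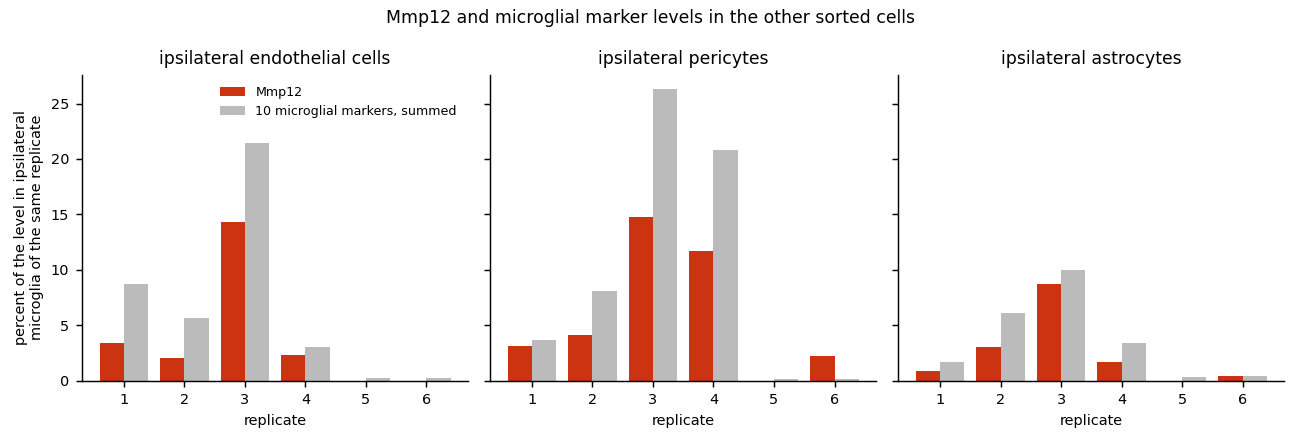
*Mmp12* (red) and the sum of 10 microglial markers (grey) in ipsilateral endothelial cells, pericytes and astrocytes, as a percent of the level in ipsilateral microglia of the same replicate, for replicates 1 to 6. Bars are single libraries. The grey bars are taller than the red ones in replicates 1 to 4, and in pericyte replicate 6 *Mmp12* is 2.22% and the markers 0.135%.

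*Mmp19*, an MMP that cuts basement membrane proteins such as type IV collagen, was upregulated in microglia and astrocytes. Contralateral microglia had 15, 7, 23, 15, 32 and 31 normalized counts and ipsilateral microglia 222, 175, 227, 472, 72 and 92. The ipsilateral libraries lay above all contralateral ones, and the means differed 10.2-fold. The log2 fold change was 3.18 (SE 0.51, limma adjusted p = 0.00181, 0.00873 with the block), and it was called in all 16 alternative fits. Monocyte and macrophage markers in microglia summed to 501 to 2714 on the contralateral and 2434 to 8147 on the ipsilateral side, where *Arg1* (log2 fold change 2.62, adjusted p = 0.00369), *Chil3* (2.75, adjusted p = 0.00800) and *Plac8* (2.33, adjusted p = 0.0176) were upregulated, and their part in *Mmp12* and *Mmp19* was not tested. In the same libraries 3 of 10 microglial markers, *Csf1r* (-1.10, adjusted p = 0.0375), *P2ry12* (-1.76, adjusted p = 0.00711) and *Tmem119* (-1.6, adjusted p = 0.00650), and 1 of 4 astrocyte markers, *Slc1a3* (-1.62, adjusted p = 0.000241), were downregulated. Of all genes tested in microglia, 10.6% were regulated.

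In astrocytes *Mmp19* had 9, 15, 32, 27, 31 and 32 normalized counts on the contralateral and 100, 224, 155, 46, 120 and 129 on the ipsilateral side, again with no overlap, which held for 0.655% of the genes tested in astrocytes. The means differed 5.30-fold, with a log2 fold change of 2.34 (SE 0.45, adjusted p = 0.0466, 0.0307 with the block). This call was close to the threshold. It was lost in 11 of 16 alternative fits, with adjusted p up to 0.473 in a joint fit of all 48 libraries and 0.0636 to 0.256 when any 1 replicate was left out. The change was 2.53 over replicates 1 to 4 and 1.95 over replicates 5 and 6, in which microglial RNA was low. The part of microglial RNA in the *Mmp19* change was not tested. *Lyve1*, a marker of perivascular macrophages, was the 1 of 9 tested monocyte and macrophage markers upregulated in astrocytes (5.65, adjusted p = 0.0466). Of all genes tested in astrocytes, 0.341% were regulated without and 1.59% with the block. With the block 3 of 5 tested neutrophil markers were also upregulated there. These were *Cxcr2* (4.32, limma adjusted p = 0.0668 without and 0.0306 with it), *S100a8* (3.93, 0.326 and 0.0351) and *S100a9* (3.91, 0.315 and 0.0249).

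In endothelial cells *Mmp19* went from 0 to 19 normalized counts on the contralateral side to 0 to 131 on the ipsilateral side (log2 fold change 2.18, SE 1.16, adjusted p = 0.486). In pericytes it went from 0 to 32 to a range of 5 to 433 (3.99, SE 1.25, adjusted p = 0.144), and 5 of 6 pairs were higher on the ipsilateral side. The F test over all 4 cell types did not call a difference in the change of *Mmp19* (adjusted p = 0.849). Part of the gene overlaps *Tmem198b* and an antisense transcript on the opposite strand in GENCODE M21, and the library kit does not record strand.

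*Mmp14* was regulated in endothelial cells only in the sense that the other 3 cell types did not pass the test. Contralateral endothelial libraries had 102, 81, 232, 86, 90 and 100 normalized counts and ipsilateral ones 382, 505, 1003, 426, 320 and 372. No library overlapped with the other side, which held for 1.13% of the genes tested in endothelial cells, and the means differed 4.35-fold. All 6 pairs rose by 1.82 to 2.63 on the log2 scale, the narrowest spread of any regulated member. The log2 fold change was 2.10 (SE 0.36, limma adjusted p = 0.0187, 0.0239 with the block). Leaving out replicate 1, 4, 5 or 6 raised the adjusted p to 0.0533, 0.0879, 0.0739 and 0.129, while the fold change stayed between 2.0 and 2.16 over all 6 such fits. In replicates 5 and 6, where microglial markers were at 0.234 and 0.254% of their microglial level, the change was 1.85, against 2.23 in replicates 1 to 4. The part of microglial RNA in the *Mmp14* change was not tested.

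In pericytes *Mmp14* had 657 to 1948 normalized counts on the contralateral and 900 to 1907 on the ipsilateral side (log2 fold change 0.41, SE 0.28, adjusted p = 0.516). Microglia went from 629 to 1007 to a range of 355 to 1639 (0.50, SE 0.32, adjusted p = 0.318). The low value of 355 was replicate 2, and without that replicate *Mmp14* was also upregulated in microglia (0.85, adjusted p = 0.00401). In astrocytes 5 of 6 pairs were lower on the ipsilateral side, from 1813 to 4338 to a range of 887 to 3068 (-0.39, SE 0.30, adjusted p = 0.745).

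Whether the stroke change differed between cell types was tested by an F test on 3 degrees of freedom in a fit of all 48 libraries. *Mmp14* was the 1 member of 10 called (F = 10.34, limma adjusted p = 0.0129, 0.000750 with a block within cell types), with 0.660% of 15003 genes called. The call was lost without replicate 3, 4 or 6 (adjusted p = 0.0633, 0.126 and 0.0671) and over replicates 1 to 4 (0.111). Its change in endothelial cells exceeded that in astrocytes by 2.50 (SE 0.46, adjusted p = 0.00667), a contrast called for 0.0600% of genes, and its adjusted p was 0.136 without replicate 4, 0.0519 without replicate 6 and 0.106 over replicates 1 to 4. It exceeded that in pericytes by 1.69 (adjusted p = 0.217) and that in microglia by 1.6 (adjusted p = 0.143), and with the block both were called (adjusted p = 0.0373 and 0.0201). The lowest adjusted p of the other 9 members was 0.557, for *Mmp2*. Since *Mmp14* was lowest in contralateral endothelial cells, the ipsilateral endothelial mean of 501 ± 253 normalized counts still lay under the contralateral means of the other 3 types, which ran from 816 ± 165 in microglia to 2675 ± 900 in astrocytes.

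**Figure D5:**
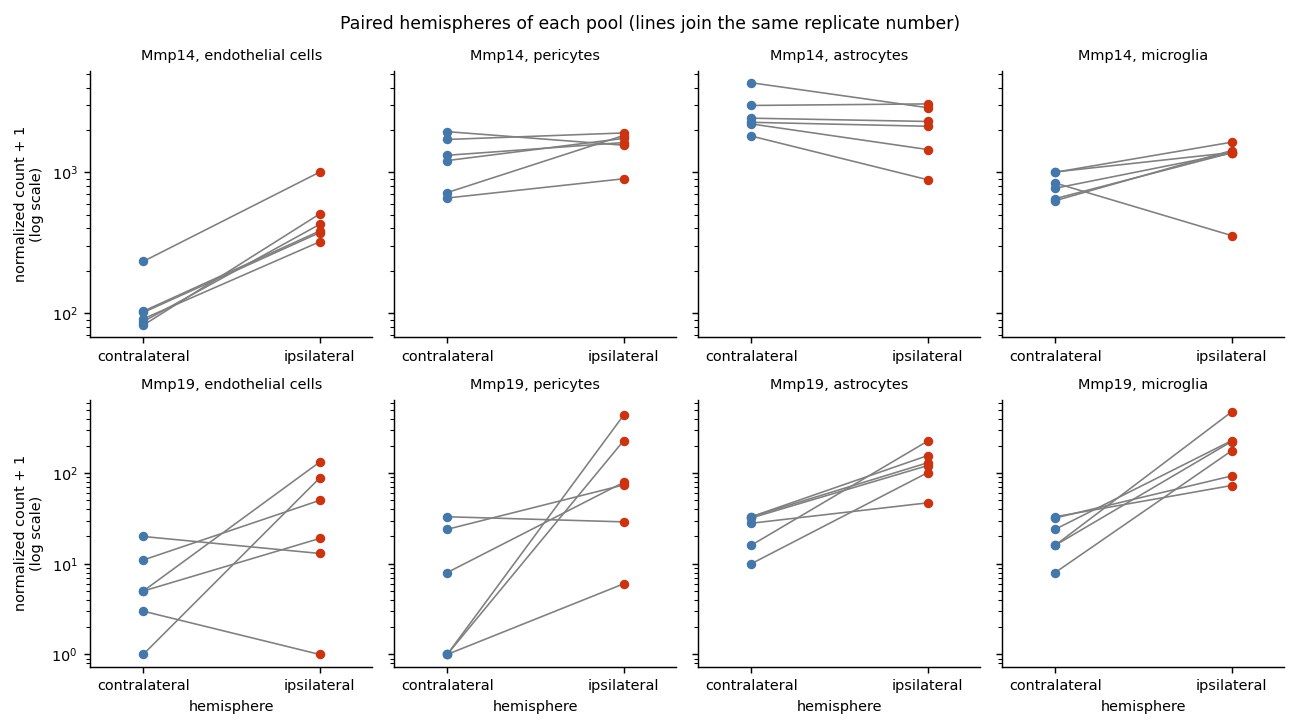
*Mmp14* (top) and *Mmp19* (bottom) in each library, as normalized count + 1 on a log axis, with lines that join the contralateral and ipsilateral library of one replicate number. In endothelial cells all 6 *Mmp14* lines rise, by 1.82 to 2.63 on the log2 scale, and in astrocytes 5 of 6 are lower on the ipsilateral side.

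*Mmp3* showed high values after stroke in pericytes, but with a wide spread. Ipsilateral pericytes had 54, 308, 223, 3021, 1754 and 1418 normalized counts against 95, 141, 262, 62, 0 and 1035, with 4 of 6 pairs higher (log2 fold change 2.82, SE 1.41, adjusted p = 0.359). In microglia all 6 contralateral libraries were at 0 and the ipsilateral ones had 4, 64, 21, 216, 0 and 47, a mean at least 19.3-fold above the floor. Its adjusted p there was 0.0240 (log2 fold change 4.36, SE 1.14) and 0.0322 with the block, but it was not called because not all 6 libraries were above 10. In endothelial cells the contralateral libraries were all at 0 and 4 of 6 ipsilateral ones had 22 to 113 (3.92, SE 1.26, adjusted p = 0.199). In astrocytes 1 contralateral library had 82 and the others 0, while the ipsilateral ones had 4 to 312 (4.58, SE 1.21, adjusted p = 0.196). Without replicate 6, which holds that library, *Mmp3* was upregulated in astrocytes (6.30, adjusted p = 0.00166).

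*Mmp8*, the neutrophil collagenase, and *Mmp9*, gelatinase B, which neutrophils carry in granules, had higher ipsilateral means in all 4 cell types without passing the test in any. *Mmp8* went from a mean of 39.3 ± 36.8 to 128 ± 55.5 normalized counts in microglia (log2 fold change 2.46, SE 0.79, adjusted p = 0.0565), from 15.8 ± 22.0 to 114 ± 75.9 in endothelial cells (3.63, adjusted p = 0.155), from 15.5 ± 38.0 to 206 ± 226 in pericytes (4.36, adjusted p = 0.236) and from 14.5 ± 29.6 to 71.8 ± 64.7 in astrocytes (3.77, adjusted p = 0.324). All 6 pairs were higher on the ipsilateral side in endothelial cells and astrocytes. *Mmp9* went from 13.5 ± 27.8 to 181 ± 226 in endothelial cells (3.71, adjusted p = 0.304), from 60.8 ± 51.5 to 319 ± 340 in pericytes (1.27, adjusted p = 0.738), from 26.7 ± 44.7 to 97.2 ± 71.5 in astrocytes (3.53, adjusted p = 0.38) and from 52.7 ± 63.2 to 171 ± 108 in microglia (1.83, adjusted p = 0.124). Without replicate 2 both were upregulated in microglia, with adjusted p of 0.0255 for *Mmp8* and 0.000980 for *Mmp9*.

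In ipsilateral endothelial cells and pericytes their values were spread unevenly over the replicates. *Mmp9* had 90, 324, 574, 91, 3 and 3 normalized counts in ipsilateral endothelial cells and 84, 494, 847, 471, 0 and 20 in ipsilateral pericytes. *Mmp8* had 15, 308, 494, 413, 0 and 6 in ipsilateral pericytes. The sum of 10 neutrophil markers was 2362, 4392, 10251, 2052, 87 and 225 in the same endothelial libraries and 29, 5602, 13454, 6608, 50 and 155 in the same pericyte libraries. The libraries with the most neutrophil RNA in these groups, replicate 3 in both, also had the most *Mmp9*. In ipsilateral microglia replicate 2 had the highest sum of these markers, 19496 against 4298 to 6864 in the other 5 libraries, and the least *Mmp9* and *Mmp8*. *Mmp9* had 117, 14, 177, 342, 173 and 205 normalized counts there and *Mmp8* 101, 73, 222, 120, 164 and 90, and replicates 5 and 6 did not stand apart. The sum in microglia is not neutrophil RNA alone, since it includes *Csf3r*, at 718 to 3457 on the ipsilateral side. On the contralateral side the microglial sum was 6337 to 7964, with *Csf3r* at 5562 to 7882. In endothelial cells *Cxcr2*, a chemokine receptor of neutrophils, was 0 in all contralateral libraries and 16 to 280 in the ipsilateral ones (5.54, adjusted p = 0.0100), while *Mpo* and *Camp* were at 0 in all 12. In microglia *S100a8* (3.35), *S100a9* (3.26) and *Retnlg* (3.36) were upregulated and *Csf3r*, which microglia also express, downregulated (-1.77). The part of neutrophil RNA in *Mmp8* and *Mmp9* was not tested.

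*Mmp2*, *Mmp11*, *Mmp13* and *Mmp25* did not pass the test in any cell type. *Mmp2* had a higher ipsilateral value in 5 of 6 endothelial pairs (13, 17, 179, 0, 10 and 14 against 157, 271, 144, 63, 36 and 37, log2 fold change 2.70, SE 1.01, adjusted p = 0.288) and a lower one in 4 of 6 microglial pairs (-1.11, SE 0.63, adjusted p = 0.265). *Mmp11* was lower in 5 of 6 astrocyte pairs, from 175 ± 35.4 to 96.7 ± 57.4 normalized counts (-1.08, SE 0.42, adjusted p = 0.460, 0.186 with the block), and differed by 0.00 (SE 0.49) in pericytes. *Mmp13*, collagenase-3, was above the floor in 3 ipsilateral pericyte libraries (65, 157 and 45) and 5 ipsilateral microglial libraries (6 to 64), with adjusted p of 0.440 and 0.125, and was too low to be tested in endothelial cells and astrocytes. *Mmp25* had means of 86.3 ± 79.4 and 101 ± 76.9 on the 2 sides in endothelial cells (adjusted p = 0.821) and at most 55 normalized counts in any library of another cell type.

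The genes whose levels followed each member most closely over the 48 libraries are given as a description, since cell type, hemisphere and RNA of other cells are shared by all genes of a library. By Pearson's r of log2(normalized count + 1) over 15003 genes, *Mmp12* was nearest to *Cd72* (0.92), *Adam8* (0.91) and *Il1rn* (0.91). *Mmp8* was nearest to *Arg1*, *Acod1* and *Chil3* (0.91, 0.91 and 0.89), and *Mmp9* to *Chil3*, *Mcemp1* and *Wfdc21* (0.80, 0.76 and 0.75). *Mmp14* was nearest to *Sdc4*, *Ak1* and *Txndc5* (0.87, 0.87 and 0.86) and *Mmp11* to *Cnnm2*, *Pdgfc* and *Nacc2* (0.88, 0.86 and 0.86). *Mmp3* was nearest to *Thbs1* (0.76), *Akr1b8* (0.75) and *Lgals1* (0.73), and *Mmp19* to *Slc7a11* (0.76), *Gpnmb* (0.75) and *Arg2* (0.74). For *Mmp2*, *Mmp13* and *Mmp25* the highest values were 0.67, 0.57 and 0.71, with *Nsl1*, *Gmppb* and *Nomo1*.

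Among 8 further family genes of the table, 0 of 2 tested in microglia, 0 of 6 in astrocytes, 0 of 4 in pericytes and 0 of 3 in endothelial cells were regulated by limma, and in these tests 2 had an unadjusted p under 0.05. Both were *Mmp17*, a glycolipid-anchored MMP, named here after its values were seen. In pericytes it went from 650 to 2760 normalized counts on the contralateral to 399 to 1439 on the ipsilateral side (-1.16, SE 0.37, adjusted p = 0.144), and in astrocytes from 9 to 34 to a range of 30 to 181 (1.79, SE 0.49, adjusted p = 0.213).

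The genes that switch MMPs on and off were read beside them. Of 7 inhibitors, 1 of 6 tested in microglia and 1 of 6 in astrocytes were upregulated by limma, and 0 of 7 in pericytes and in endothelial cells, where 3 each had an unadjusted p under 0.05. Of all genes tested, 10.6%, 0.341%, 1.02% and 0.491% were regulated in microglia, astrocytes, pericytes and endothelial cells. *Timp1*, the inducible inhibitor of most secreted MMPs, rose in astrocytes (83.8 ± 79.9 to 604 ± 222 normalized counts, 3.08, adjusted p = 0.00805) and microglia (8.0 ± 7.46 to 81.7 ± 68.6, 3.37, adjusted p = 0.0110), and with the block also in endothelial cells (2.32, adjusted p = 0.138 without and 0.0343 with it) and pericytes (2.07, adjusted p = 0.103 and 0.0344). *A2m*, a general protease trap, was called in astrocytes with the block (1.25, adjusted p = 0.434 without and 0.0162 with it). The median log2 fold change of the tested inhibitors was 0.33, -0.22, -0.24 and 0.14 in endothelial cells, pericytes, astrocytes and microglia, against -0.03, -0.04, -0.06 and -0.18 over all genes tested.

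Of 11 activators and surface partners, 1 of 9 tested was upregulated in endothelial cells, 2 of 11 rose in pericytes, 1 of 11 rose in astrocytes, and of 9 tested in microglia 2 were upregulated and 1 was downregulated. Of all genes tested, 0.491%, 1.02%, 0.341% and 10.6% were regulated in endothelial cells, pericytes, astrocytes and microglia. The median of the list was 0.45, 0.42, 0.25 and 0.01 in these cell types. *Plaur*, the urokinase receptor that gathers plasmin formation at the cell surface, rose in endothelial cells (2107 ± 997 to 6714 ± 1403, 1.79, adjusted p = 0.0187), pericytes (164 ± 95.7 to 1142 ± 679, 2.88, adjusted p = 0.0259) and microglia (0.75, adjusted p = 0.0299). *Cd44*, a hyaluronan receptor that can dock MMP9 and MMP14 on the cell surface, rose in pericytes (3.01, adjusted p = 0.0447), astrocytes (2.85, adjusted p = 0.0393) and microglia (4.02, adjusted p = 2.08e-05), and with the block in endothelial cells (3.84, adjusted p = 0.0930 without and 0.0468 with it). *Itgb3*, the β3 integrin, fell in microglia (-1.18, adjusted p = 0.0171).

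Of 19 basement membrane and junction substrates, 0 were regulated in endothelial cells, pericytes and astrocytes by limma, where 4, 5 and 1 had an unadjusted p under 0.05, and of 18 tested in microglia *Fn1*, fibronectin, rose (2.25, adjusted p = 0.00138) and *Tjp1*, the tight junction scaffold ZO-1, fell (-0.89, adjusted p = 0.00866). In microglia 10.6% of all genes tested were regulated, a share near that of this list. With the block *Nid1*, the laminin- and collagen IV-binding nidogen, was also called in endothelial cells (1.45, adjusted p = 0.0930 without and 0.0371 with it) and microglia (2.88, adjusted p = 0.0755 and 0.0346). The median of the list was 0.05, -0.12, 0.10 and 0.37 in endothelial cells, pericytes, astrocytes and microglia.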

How the data were processed

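RNA of FACS-sorted NVU cells was sequenced by the authors in 48 libraries with a SMART-Seq kit. Per the labels, reads were trimmed with Trimmomatic 0.38, aligned with STAR 2.6.1d to the mouse genome mm10 (GRCm38) and counted on genes with featureCounts 1.6.3, without reads on several genes or places. The values the authors deposited were normalized with DESeq2 1.18.1 and rounded to whole numbers. The values deposited by the authors are thus a score, called normalized counts here, and not raw counts, and no count test was run. The labels and the paper name different RNA extraction kits.

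Fits were made with limma 3.58.1 in R 4.3.3 on log2(normalized count + 1), with a pseudocount of 1, on genes whose mean over the libraries of the fit reached 10, two-sided and adjusted by Benjamini-Hochberg over all genes tested. As in the study, a regulated gene had an adjusted p of at most 0.05, a change of 1.5-fold or more and more than 10 normalized counts (reads in the study) in all replicates of at least 1 of the groups compared. Each cell type was fitted on its 12 libraries, contralateral contrasts on the 24 contralateral libraries and differences of stroke changes on all 48. The fits were tested on simulated data with 200 changed genes. The worth of 1 read, from the spacing of low values, was 0.67 to 2.37 normalized counts. The floor of 3 reads covers counting error only. Libraries within a group are pools of separate mice, but the 4 cell types and both hemispheres of a replicate number share the same pool. Fits without a block treat these libraries as independent, so their p-values do not measure the spread between separate pools alone. The block of the F test lies within cell types and does not cover pools shared between them.

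Both hemispheres of a replicate number come from the same pooled mice. Deviations from the group mean of libraries with the same number correlated across genes by 0.23, 0.23, 0.38 and 0.14 on average in endothelial cells, pericytes, astrocytes and microglia, against -0.04, -0.04, -0.08 and -0.03 for other numbers. Blocked fits are given beside results of members, inhibitors, activators, surface partners and substrates whose call they change. Among cell type markers they also called *Gfap* in astrocytes, *S100a8* in pericytes, *Chil3* in endothelial cells and *Pf4* in microglia as higher on the ipsilateral side. *Myh11* in pericytes and *Cx3cr1* in microglia were called as lower, and the neutrophil markers of astrocytes are given in the text.

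All 10 members are named. Of the other gene lists (family genes, inhibitors, activators and surface partners, substrates, cell type markers), genes called in at least 1 cell type are named and the others are counted. One gene of these lists is not reported here and was left out of the counts. The 3 genes nearest to each member by Pearson's r are named. The members and lists were chosen with earlier results of these data known. Alternatives were the pseudocounts 0.1 and 10, a minimum mean of 50 or none, the block, a joint fit of 48 libraries, rescaling, calls without the expression rule or without the fold threshold, leaving out each replicate, and replicates 1 to 4 alone. Exon lengths came from GENCODE M21, coordinates of genes from the deposited table, and promoters from RefSeq (GRCm38.p6).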

Additional observations from a re-analysis of the deposited data

Results flagged for a closer look

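Single libraries that lay far from the other 5 of their group, by the gap to the nearest value divided by the range of the group, were found in 24 of 75 groups of 6 that held any signal. The gap was taken on normalized counts and not on the log scale. Skewed groups with many values at 0 are marked easily by this rule, so the count has no chance rate to be set against. In 6 of the 24 the gene was above 0 in that library alone. In contralateral libraries these were *Mmp2* at 179 in endothelial replicate 3, *Mmp3* at 82 in astrocyte replicate 6 and 1035 in pericyte replicate 6, *Mmp8* at 74 in astrocyte and 93 in pericyte replicate 2, *Mmp9* at 115 in astrocyte replicate 2, 70 in endothelial replicate 1 and 178 in microglial replicate 2, and *Mmp12* at 3 in pericyte replicate 4. *Mmp13* was at 11 in astrocyte replicate 1, 17 in microglial replicate 6 and 11 in pericyte replicate 4, *Mmp14* at 232 in endothelial replicate 3, and *Mmp25* at 2 in astrocyte replicate 5 and 44 in microglial replicate 2. In ipsilateral libraries they were *Mmp3* at 312 in astrocyte replicate 2 and 216 in microglial replicate 4, *Mmp12* at 983 in endothelial replicate 3, *Mmp13* at 6 in astrocyte replicate 1 and 42 in endothelial replicate 3, *Mmp14* at 1003 in endothelial replicate 3, and *Mmp25* at 55 in pericyte replicate 3.

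Low outlying libraries were found for *Mmp14* alone, at 355 in ipsilateral microglial replicate 2, where the nearest value was 1372, and at 900 in ipsilateral pericyte replicate 1, where it was 1561. Endothelial replicate 3 had the highest *Mmp14* in both hemispheres, and the change of its pair was within the range of the other 5.

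The stroke change of *Mmp14* differed between cell types by the F test (10.34), and between endothelial cells and astrocytes by 2.50 on the log2 scale.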

How the results depend on the processing

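Regulated members in microglia were 2 under every alternative that kept all replicates except a pseudocount of 10, which added *Mmp8*, and no expression rule, which added *Mmp3*, with 3 each, and 2 to 5 when 1 replicate was left out, with *Mmp8*, *Mmp9* and *Mmp14* added without replicate 2. Calls also rose over the whole table in that fit, to 1909 of 13233 genes tested, against 1404 of 13300 in the main fit. In endothelial cells the count was 0 to 1 with a replicate left out, 1 otherwise, and over replicates 1 to 4 the 1 gene was *Mmp12* in place of *Mmp14* (adjusted p = 0.205). In pericytes it was 1, *Mmp12*, with no expression rule and over replicates 1 to 4, and 0 to 1 with a replicate left out. In astrocytes it was 0 with a pseudocount of 0.1, no filter, a mean of at least 50 and the joint fit, 0 to 1 with a replicate left out (*Mmp12* without replicate 5 and *Mmp3* without replicate 6), and 2, *Mmp3* and *Mmp12*, over replicates 1 to 4. Contralateral differences called were 11 to 14 with a replicate left out. The F test called 0 to 1 members with a replicate left out (0 without replicate 3, 4 or 6) and 0 over replicates 1 to 4. With the replicate block the counts of regulated members were 1, 0, 1 and 2, and the block changed no call of a member other than the contralateral *Mmp2* and *Mmp9* and the *Mmp14* differences given in the text.

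Log2 fold changes that did not pass the test changed sign without replicate 1 (*Mmp2* in pericytes, 0.10), 2 (*Mmp11*, -0.18 in endothelial cells and 0.02 in microglia), 4 (*Mmp9* in pericytes, -0.06, *Mmp11*, -0.11, and *Mmp25*, -0.06, in endothelial cells, *Mmp25* in pericytes, 0.26) and 5 (*Mmp2*, 0.55, and *Mmp25*, 0.17, in pericytes), and over replicates 1 to 4 (*Mmp2*, 0.74, and *Mmp25*, 0.26, in pericytes). Over the fits without 1 replicate the range was -2.59 to 0.55 for *Mmp2*, -0.06 to 2.46 for *Mmp9* and -0.69 to 0.26 for *Mmp25* in pericytes, -0.18 to 2.05 for *Mmp11* and -0.06 to 2.17 for *Mmp25* in endothelial cells, and -1.77 to 0.02 for *Mmp11* in microglia. The difference in *Mmp14* change between pericytes and microglia (-0.09) became 0.02, 0.04 and 0.09 without replicates 3, 4 and 5 and 0.19 over replicates 1 to 4, with -0.63 without replicate 2. The cause was not tested. Leaving out replicate 6 for the *Mmp3* level in contralateral pericytes was chosen after seeing the data. Of all genes, 65, 139, 52 and 1404 were regulated in endothelial cells, pericytes, astrocytes and microglia, against 73, 226, 242 and 1468 with the block, 262, 312, 112 and 969 in the joint fit and 11, 31, 48 and 787 over replicates 1 to 4, which hold fewer samples. The floor of 3 reads was 7.1 normalized counts in ipsilateral microglial replicate 3 and at most 4.77 in every other library. Many values of *Mmp13*, *Mmp25* and contralateral *Mmp8* lay at or near the floor of their own library, and the part of depth in them was not tested.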
